A study of Arabidopsis thaliana with 21 samples.

Results

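The transcripts of Arabidopsis thaliana Col-0 rosettes were compared after 2 h of high light (T2H, 500 µE) and after 2 h of standard light (T2L, 100 µE). The comparison holds 6 of the 21 libraries of the series, 3 in each group, and covers every gene of the count files. All plants were wild type, 3 weeks old, and had been raised at 22 °C with 16 h of light near the standard intensity. They went straight from the end of the night into either light, in sealed chambers under 1 kind of LED lamp, and the intensity was set by the distance to the lamp. The other groups are dark at the end of the night (T0D) and both intensities at 5 h (T5L, T5H) and 8 h (T8L, T8H), each with 3 libraries. The tissue was the whole rosette, harvested in biological triplicate. No source used here gives the number of plants in a sample or the leaf temperature at each lamp distance, and every p-value rests on the spread among 3 such samples a group. The title of the series concerns enzymes that are degraded in high light and the regulation of their transcripts.

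When leaves absorb more light than photosynthesis can use, electrons and energy pass to oxygen, and the photosystem II reaction centre is damaged and rebuilt. Leaves are known to answer with scavenging enzymes such as ascorbate peroxidase, with thylakoid proteases that clear damaged reaction centre proteins, with cytosolic chaperones driven by heat shock factors, and with ferritins that lock up free iron. Light also sets the clock and supplies sugar, so genes that are high at night and under sugar starvation are shut down after dawn.

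Short regulatory sequences of the genes the results turn on are shown here from the TAIR10.1 assembly of RefSeq, read 5′ to 3′ on the strand of the gene. The first is the stretch upstream of the annotated start of HSFA2, a heat shock transcription factor, and the next is that of APX1, the cytosolic ascorbate peroxidase. They lie at chr2:11135466-11135623 (+ strand) and chr1:2437031-2437280 (+ strand). The HSFA2 stretch is shorter because the neighbouring gene AT2G26140 begins beyond it. Capitals mark the heat shock element GAANNTTC, of which HSFA2 had 2 copies and APX1 had 1.
HSFA2: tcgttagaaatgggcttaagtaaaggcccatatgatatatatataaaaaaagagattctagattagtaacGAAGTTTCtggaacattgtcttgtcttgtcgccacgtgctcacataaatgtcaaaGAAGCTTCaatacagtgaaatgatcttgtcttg
APX1: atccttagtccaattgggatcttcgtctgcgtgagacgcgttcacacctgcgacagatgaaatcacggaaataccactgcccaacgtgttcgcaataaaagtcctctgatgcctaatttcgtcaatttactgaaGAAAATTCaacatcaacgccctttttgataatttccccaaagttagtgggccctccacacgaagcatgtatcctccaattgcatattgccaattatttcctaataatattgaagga

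The next examples are genes that fell and had a G-box, the sequence marked below. They are RVE1, a MYB-like clock output factor, CDF2, a DOF factor that represses the flowering gene CONSTANS, and FRO6, a ferric reductase. Their upstream windows lie at chr5:5692993-5693242 (- strand), chr5:15878448-15878697 (+ strand) and chr5:20204596-20204845 (- strand). Capitals mark the G-box CACGTG, the core that bZIP and bHLH light-signalling factors are known to bind.
RVE1: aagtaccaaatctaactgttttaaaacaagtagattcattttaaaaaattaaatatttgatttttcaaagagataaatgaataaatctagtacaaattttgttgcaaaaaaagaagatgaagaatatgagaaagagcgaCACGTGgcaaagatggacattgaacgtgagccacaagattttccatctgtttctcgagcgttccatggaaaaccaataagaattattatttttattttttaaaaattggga
CDF2: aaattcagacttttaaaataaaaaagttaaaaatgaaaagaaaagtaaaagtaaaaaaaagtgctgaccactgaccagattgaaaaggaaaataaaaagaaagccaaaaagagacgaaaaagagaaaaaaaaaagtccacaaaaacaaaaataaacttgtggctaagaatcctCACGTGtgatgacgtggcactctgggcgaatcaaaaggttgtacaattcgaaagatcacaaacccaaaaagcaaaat
FRO6: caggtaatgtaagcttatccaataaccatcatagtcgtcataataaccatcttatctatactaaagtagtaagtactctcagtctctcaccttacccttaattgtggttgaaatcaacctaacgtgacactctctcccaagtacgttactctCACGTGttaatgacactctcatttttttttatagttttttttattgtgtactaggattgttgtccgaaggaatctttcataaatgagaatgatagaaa

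The iron-dependent regulatory sequence, known from the promoter of the ferritin gene FER1, was looked for by its consensus on both strands. It was found in FER1 at chr5:229771-229784 (- strand), inside the annotated first exon and 176 bases before the coding sequence. Of 18636 nuclear protein-coding genes searched from 250 bases before to 300 bases after the annotated start, FER1 was the 1 gene with a match; this wider window was chosen after the values were seen.
FER1: CACGAGGCCGCCAC

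Searched on both strands over the 250 bases before the start, the heat shock element was in 9.49% of 18635 tested nuclear protein-coding genes and the G-box in 7.5%. Among genes that rose at 2 h, 11.0% of 282 held the heat shock element and 11.0% the G-box. Among genes that fell, 9.21% of 228 held the heat shock element and 11.0% the G-box. The genes shown are chosen examples. The heat shock element also stood before RAV1 and ERF2, which fell, and the G-box before HSFA2 (not marked above) and HSC70-1, which rose. These matches are a description of the letters. Other forms of the heat shock element and other bound sites were not looked at.

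The 2 h libraries held 6545003 to 15332727 counts in T2L and 11515249 to 13265746 in T2H, and libraries of 1 group differed from each other by far more than counting noise. Ribosomal RNA, which the library kit should remove, moved with the groups: it took 17.9%, 13.9% and 4.89% of the counts in T2L replicates 1, 2 and 3, and 0.385%, 0.138% and 5.28% in T2H replicates 1, 2 and 3. Replicate 3 of both groups thus stood close together, and the exact two-sided permutation test gave p = 0.2, where 3 libraries against 3 cannot go below 0.1. Nuclear protein-coding genes took 42.8% to 44.1% of the counts in T2L and 50.0% to 64.3% in T2H (exact permutation p = 0.1). Levels are counts scaled to library size (CPM) after TMM scaling. All 5 markers of leaf mesophyll were well measured and no marker of mesophyll, root, guard cell, vascular tissue, epidermis, dividing cells or flower passed the test. The summed mesophyll markers were 10860 to 13610 CPM in T2L and 14610 to 24400 in T2H. The root hair genes COBL9 and RHD6 had no count in any of the 6 libraries. Another root marker, PYK10, was at 19.0 to 27.1 CPM in T2L and 11.7 to 30.2 CPM in T2H. In whole rosettes, fewer cells of a type and less RNA per cell cannot be told apart.

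Of 19626 genes tested, 284 were higher in high light (1.45%) and 239 were lower (1.22%) at an adjusted p under 0.05, 2.66% together. Counts for the gene lists below stand beside these shares. A list with few calls is given for its single genes and not as a result about the list. The median log2 fold change was 1.06 among genes that rose and -1.09 among genes that fell, and 162 and 140 of them changed by at least 2-fold. The median over all genes tested was -0.0006. In 518 of the 523 called genes the 3 T2H libraries lay wholly above or below the 3 T2L libraries, as they did in 19.9% of all genes tested. No overlap was also a condition for naming the 20 largest rises and the 20 largest falls. The separation of the groups in named genes is thus a description and not added support. Almost all calls were protein-coding genes; the exceptions among genes that rose were AT5G01595, a non-coding RNA antisense to FER1, and MIR163, a miRNA precursor. The authors' deposited table lists 24 genes for this comparison, 16 higher and 8 lower, and all 24 were called here with the same sign. A test against a minimum fold of 1.5 on the deposited counts also called 24 genes, the same ones.

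The number of calls depended on which libraries and terms were in the fit. With the share of ribosomal RNA as a covariate, 131 genes passed (0.667%), 113 of them among the 523, and all 523 kept their sign; without T2L replicate 1, the library with the fewest counts, 61 genes were higher and 49 lower. Of the 523 genes, 76 passed in each of the 6 fits that left out 1 of the 6 libraries.

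**Figure D1:**
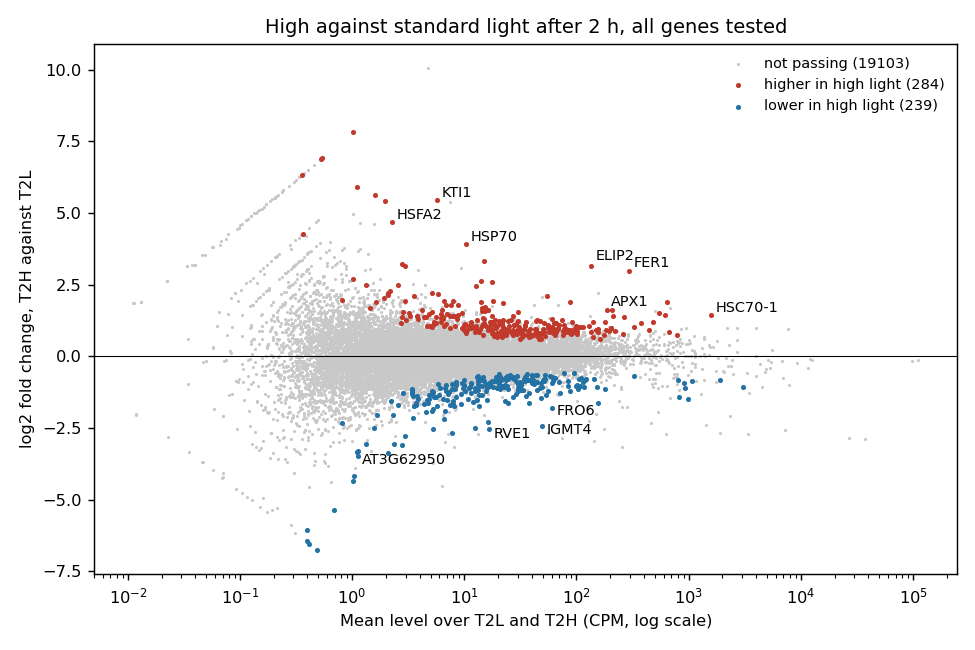
Each point is 1 of the genes tested, with the mean CPM of T2L and T2H on a log x axis and the log2 fold change in high light on the y axis. The 284 genes that rose are red and the 239 that fell are blue; HSC70-1 is among the called genes of high level and HSFA2 and KTI1 among those of low level, and the diagonal streaks are genes with no count in 1 of the groups.

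Cytosolic heat shock proteins and their transcription factors formed the list with the highest number of genes risen. Ribosome biogenesis had the larger share (7 of 16), and of all genes tested 1.45% were higher. Of 40 heat shock factors and chaperones tested, 12 rose, none fell and 28 did not pass, with a list median of 0.59 on the log2 scale beside -0.0006 for all genes. HSFA2 was at 0, 0.345 and 0.0704 CPM in the T2L libraries and at 5.70, 3.44 and 4.11 CPM in T2H. The groups lay far apart, and in T2L the gene was at or near no counts (log2 fold change 4.67 ± 0.71 SE, adjusted p = 0.001). HSP70 (AT3G12580), a cytosolic chaperone, was at 1.67, 0.69 and 1.62 CPM in T2L and 14.8, 26.9 and 16.3 CPM in T2H. Its lowest high-light library was thus well above its highest standard-light library (log2 fold change 3.91 ± 0.58, adjusted p = 0.0013).

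Abundant members moved by smaller factors. HSC70-1, a constitutive cytosolic HSP70, was at 650, 909 and 952 CPM in T2L and 2291, 2966 and 1626 CPM in T2H (log2 fold change 1.46 ± 0.29, adjusted p = 0.00891). The adjacent gene Hsp70-2 went from 20.4 ± 4.93 to 88.9 ± 17.0 CPM (SD, n = 3), a log2 fold change of 2.11 ± 0.35. AT3G09440, a further HSP70 that the list did not hold and the authors' deposited table names, was at 240 to 309 CPM in T2L and 660 to 1291 CPM in T2H (1.89 ± 0.29, adjusted p = 0.001). HSP90 chaperones rose as well. The inducible HSP90.1 went from 5.11 ± 1.28 to 30.5 ± 12.3 CPM, and the constitutive HSP81-2 and HSP81-3 by 1.42 ± 0.26 and 1.5 ± 0.25 on the log2 scale. In all 6 of these genes T2H replicate 3 was below T2H replicate 2, and no T2H library reached down to the T2L range. Copies of HSP70 and of HSP90 are alike in sequence, so the split of reads among them is uncertain.

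Helpers of these chaperones rose too. ROF2, an immunophilin that binds HSP90, was at 2.75 to 5.45 CPM in T2L and 10.1 to 17.56 CPM in T2H (log2 fold change 1.79 ± 0.36). The disaggregase HSP101 rose by 1.42 ± 0.35, the HSP40 proteins J3 and DNAJ (AT2G20560) by 0.86 ± 0.20 and 2.48 ± 0.53, and the HSP70-associated protein Fes1A by 1.15 ± 0.26. The other 28 members included small heat shock proteins at the edge of detection: HSP23.5 was at 0 to 0.207 CPM in T2L and 0.758 to 2.35 CPM in T2H (adjusted p = 0.0657), and HSP17.6II at 0 to 0.69 and 0.475 to 2.15 CPM (adjusted p = 0.288). Of the upstream windows of the 12 that rose, 1 held the heat shock element, that of HSFA2 shown above. Among the 28 that did not pass, 5 held it. Only the form GAANNTTC was searched, in the bases before the start, so the counts cannot show that a gene lacks the element.

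HSFA2, HSP70, Hsp70-2, HSP81-2, HSP81-3 and ROF2 passed in each fit that left out 1 library. Without T2L replicate 1, HSP90.1, HSC70-1, HSP101, J3 and Fes1A reached adjusted p of 0.0545 to 0.131, and without T2L replicate 2, DNAJ, HSP101 and Fes1A reached 0.054 to 0.0797; without T2H replicate 1 or 2, HSP101 and J3 reached 0.0607 to 0.129, as did Fes1A without T2H replicate 1 (0.104). With the ribosomal RNA term in the fit, 6 of the 12 passed and the list median was 0.56.

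**Figure D2:**
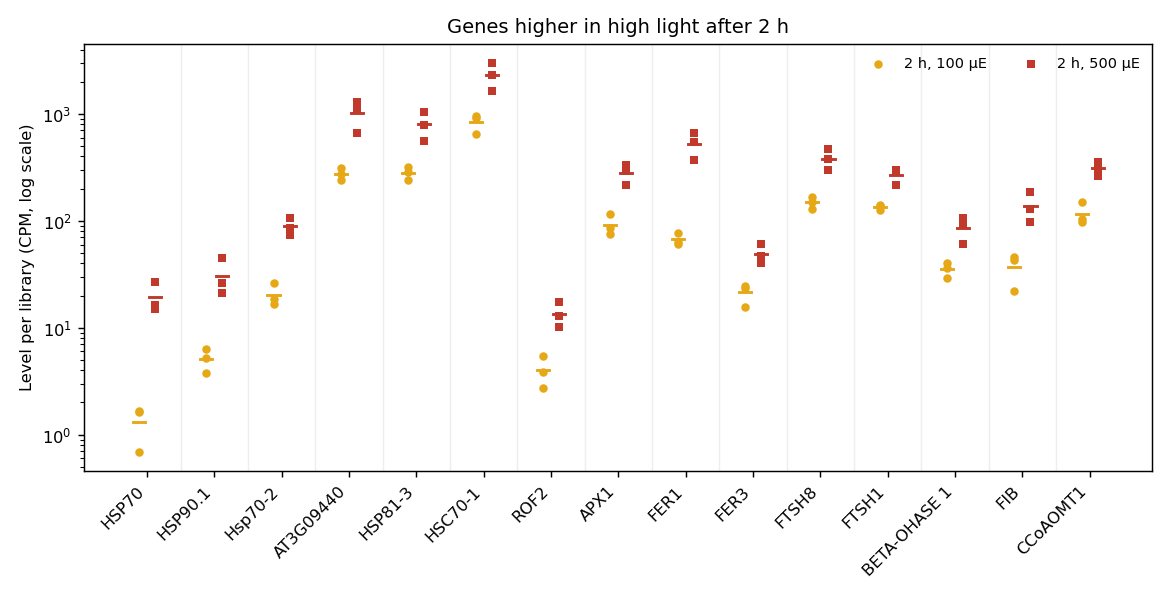
Level per library, in CPM on a log y axis, of genes that rose, with circles for the 3 T2L libraries, squares for the 3 T2H libraries and bars at the means. For each gene shown, such as HSP70 at 0.69 to 1.67 CPM in T2L and 14.8 to 26.9 CPM in T2H, the groups do not overlap. The same held for 518 of the 523 called genes.

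Among antioxidant enzymes the rise was narrow. Of 37 tested, 3 rose, none fell and 34 did not pass, with a list median of 0.37. APX1 was at 75.6, 84.9 and 115 CPM in T2L and at 330, 290 and 215 CPM in T2H (log2 fold change 1.6 ± 0.20, adjusted p = 0.000143). Its groups were separated, and APX1 was among the genes that passed in every fit that left out 1 library and with the ribosomal RNA covariate. The iron superoxide dismutase FSD1 (1.08 ± 0.28) and ATMDAR2, a monodehydroascorbate reductase that regenerates ascorbate (0.90 ± 0.23), also rose, but FSD1 in T2H replicate 3 was at 19.5 CPM, within the T2L range of 15.4 to 20.7. Neither passed without T2L replicate 2 (0.117 and 0.131), T2H replicate 1 (0.132 and 0.148) or T2H replicate 2 (0.179 and 0.0714); FSD1 also failed without T2L replicate 1 (0.132) and ATMDAR2 without T2L replicate 3 (0.0734). The photorespiratory catalase CAT2 was at 588 CPM in T2L and 1129 CPM in T2H on average and just missed the threshold (0.94 ± 0.26, adjusted p = 0.0507). The chloroplast ascorbate peroxidases TAPX and SAPX stood at 0.22 ± 0.22 and 0.16 ± 0.21 on the log2 scale.

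In ascorbate and glutathione synthesis, 1 of 9 genes rose. It was VTC2, the enzyme of the first committed step of ascorbate synthesis, at 526 to 694 CPM in T2L and 837 to 1068 CPM in T2H (log2 fold change 0.74 ± 0.20, adjusted p = 0.0458). VTC2 did not pass without T2L replicate 1 or 2 or T2H replicate 1 or 2 (adjusted p 0.118 to 0.179).

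Of 31 iron genes tested, 2 rose, 3 fell and 26 did not pass. The 2 that rose were FER1 and FER3, ferritins that store iron in plastids; a further ferritin, FER4, was at 14.1 CPM in T2L and 23.2 CPM in T2H on average and did not pass (0.70 ± 0.28, adjusted p = 0.178). FER1 was at 77.3, 60.6 and 63.2 CPM in T2L and at 656, 545 and 367 CPM in T2H. Every high-light library exceeded the highest standard-light library by far, and FER1 had the smallest adjusted p of the named genes (log2 fold change 2.96 ± 0.29, adjusted p = 4.98e-06). In the dark FER1 stood at 115 ± 17.9 CPM, above T2L and below T2H. FER3 rose from 21.3 ± 4.87 to 49.2 ± 10.5 CPM (1.19 ± 0.20, adjusted p = 0.00248).

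The iron genes that fell were FRO6 and FRO7, ferric reductases of leaf cells and of the chloroplast, and IMA3, a small iron-deficiency peptide. FRO6 was at 132, 68.8 and 80.6 CPM in T2L and at 22.4, 29.0 and 29.4 CPM in T2H (log2 fold change -1.80 ± 0.32, adjusted p = 0.00487), and its dark level was 184 ± 39.1 CPM. FRO7, the neighbouring gene, fell by 1.15 ± 0.26 and IMA3 by 1.36 ± 0.37 on the log2 scale. The groups did not overlap in any of the 3. The G-box stood in the windows of FER3, FRO6 and FRO7, 3 of the 5 called genes, and of 4 of the 26 that did not pass. Its share over all tested nuclear protein-coding genes was 7.5%. In the clock list 2 of 5 called genes and 10 of 35 that did not pass held it. FER1, FER3 and FRO6 passed in every fit that left out 1 library; FRO7 did not without T2L replicate 1 or T2H replicate 1 (adjusted p 0.122 and 0.108), and IMA3 passed in none of them (0.0651 to 0.147).

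The RNA antisense to FER1, AT5G01595, rose alongside it. This locus spans chr5:226972-229286 on the + strand and overlaps FER1 at chr5:227953-230051 on the - strand. It was at 3.48, 2.35 and 2.46 CPM in T2L and 24.8, 45.5 and 11.1 CPM in T2H (3.33 ± 0.49, adjusted p = 0.00107). Set against FER1 in the same library, it amounted to 3.87% to 4.51% in T2L and 3.02% to 8.35% in T2H, so the antisense counts kept a low share of the FER1 counts at both light levels. Counting used the strand, and the part that reads of FER1 on the other strand have in these counts was not tested.

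Proteases of the chloroplast rose in 4 of 22 cases and fell in none, with a list median of 0.12. With the ribosomal RNA covariate the median was -0.04. FTSH8 and FTSH1, subunits of the thylakoid metalloprotease that removes damaged photosystem II proteins, went up together. FTSH8 was at 129, 151 and 168 CPM in T2L and 466, 381 and 300 CPM in T2H (log2 fold change 1.36 ± 0.19, adjusted p = 0.000304). FTSH1 was at 126 to 142 CPM and 218 to 296 CPM (0.99 ± 0.15, adjusted p = 0.00109). No high-light library of either gene reached the standard-light range, and both passed in every fit that left out 1 library. SPPA, a thylakoid peptidase known to be induced by light, rose by 0.85 ± 0.16 and also passed in each of those fits, but not with the ribosomal RNA covariate (0.0556) or from the 6 libraries alone (0.0644). ERD1, a Clp ATPase of the stroma, rose by 0.84 ± 0.23 but passed only without T2H replicate 3 (0.0614 to 0.196 in the other 5 fits). None of the 10 chloroplast chaperones tested passed, with log2 fold changes of -0.20 to 0.52.

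Of 34 photoprotection genes, 2 rose and 1 fell, where 1.45% of all genes tested rose and 1.22% fell. BETA-OHASE 1, a carotene hydroxylase that makes xanthophylls, was at 29.4, 35.9 and 40.1 CPM in T2L and 106, 91.5 and 60.9 CPM in T2H (log2 fold change 1.29 ± 0.20, adjusted p = 0.00107). ELIP2, an early light-induced protein of the thylakoid, was at 13.3, 31.1 and 36.8 CPM in T2L and at 305, 303 and 120 CPM in T2H (3.15 ± 0.62, adjusted p = 0.017). Its close copy ELIP1 was at 27.4, 44.97 and 92.6 CPM and 307, 308 and 152 CPM, and did not pass (adjusted p = 0.0607). In both ELIP genes T2H replicate 3 was the lowest and T2L replicate 3 the highest of its group, and the groups did not overlap. NPQ1, the violaxanthin de-epoxidase, fell by 0.71 ± 0.17. ELIP2 missed the threshold without T2L replicate 1 or 2 or T2H replicate 1 (0.05004 to 0.083), and NPQ1 passed only without T2L replicate 3 (0.0545 to 0.133 in the other 5 fits). In the antenna list 1 of 21 genes passed, LHCB7, an antenna-like protein of low level whose groups overlapped (1.05 ± 0.29, lost without T2L replicate 1 or 2 or T2H replicate 1 or 2, adjusted p 0.145 to 0.223). In the Calvin-Benson cycle none of 21 passed, with a median of 0.17, or -0.16 with the ribosomal RNA covariate.

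Several clock outputs that were high in the dark fell. Among all 239 genes that fell, the dark mean was above both lights in 133 (55.65%) and below both in 38 (15.9%). Among all genes with a lower mean in T2H these shares were 42.18% and 41.7%. Of 40 clock and photoperiod genes, 5 fell, none rose and 35 did not pass, with a list median of -0.34. RVE1 was at 34.4, 18.0 and 32.7 CPM in T2L and at 5.57, 5.51 and 3.24 CPM in T2H (log2 fold change -2.56 ± 0.29, adjusted p = 4.71e-05). In the dark it stood at 492 ± 45.7 CPM, so its high-light level was the one farthest from the night level. CDF2 stood at 176 ± 21.9 CPM in the dark, 12.5 ± 0.675 in T2L and 3.72 ± 0.722 in T2H (-1.75 ± 0.33).

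The remaining 3 belong to the AP2/B3 family that includes repressors of flowering. RAV1 was at 32.9 to 40.0 CPM in T2L and 8.78 to 13.8 CPM in T2H (-1.65 ± 0.20, adjusted p = 0.000107), TEM1 at 12.4 to 21.2 and 5.99 to 7.92 CPM (-1.27 ± 0.25), and RAV2 at 6.42 to 14.5 and 0.964 to 3.36 CPM (-2.19 ± 0.50). Their dark levels were 107 ± 16.2, 88.6 and 153 CPM. The core morning genes CCA1 and LHY, at 229 and 241 CPM in T2L and 158 and 194 CPM in T2H, did not pass (-0.54 ± 0.24 and -0.32 ± 0.23). RVE1, CDF2, RAV1 and TEM1 passed in each fit that left out 1 library, and RAV2 did not without T2L replicate 1, T2H replicate 1 or T2H replicate 2 (0.0522 to 0.108). With the ribosomal RNA covariate CDF2 and RAV2 were lost (0.0734 and 0.0963).

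Genes of the starvation response, which the kinase SnRK1 controls, fell in 4 of 38 cases and rose in 1. TPS8, a trehalose phosphate synthase-like protein, was at 37.1, 24 and 20.1 CPM in T2L and 6.11, 3.86 and 6.57 CPM in T2H, against 268 ± 9.31 CPM in the dark (-2.28 ± 0.34, adjusted p = 0.00107). TPS9 was at 155 CPM in the dark, 5.44 in T2L and 2.11 in T2H, and BZO2H3, the bZIP factor known as bZIP63, at 171, 10.5 and 2.84 CPM (-1.38 ± 0.31 and -1.91 ± 0.34). TPS7 fell by 0.86 ± 0.21 from a T2L level of 108 CPM that was above its dark level of 90.31 CPM. ATCTH, a CCCH zinc finger protein that the authors' deposited table names, had the same order as TPS8, at 233 CPM in the dark, 10.4 in T2L and 3.55 in T2H (-1.54 ± 0.24, adjusted p = 0.00107).

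The member that rose, the dark-inducible beta-glucosidase DIN2, had 2 counts over the T2L libraries and 131 over the T2H libraries, a ratio of 55.0 with a 95% exact counting interval of 14.9 to 459. Its dark level of 0.395 CPM lay below its T2H mean of 3.16 CPM. TPS8 and BZO2H3 passed in each fit that left out 1 library. DIN2 did not without T2L replicate 1 (0.0858), TPS9 without T2L replicate 2 or T2H replicate 1 (0.0753 and 0.0726), and TPS7 without T2L replicate 1 or 2 or T2H replicate 1 or 2 (0.0751 to 0.167).

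Of 30 genes of starch and sugar metabolism, 1 rose and 2 fell. BMY3, a beta-amylase-like protein, was at 336 CPM in the dark, 45.3 to 58.2 in T2L and 16.5 to 24.6 in T2H (-1.40 ± 0.27, adjusted p = 0.00618), and passed in each fit that left out 1 library. SS4, which starts starch granules, fell by 0.90 ± 0.23 and GPT2, the plastid glucose-6-phosphate carrier, rose from 7.74 to 23.1 CPM (1.59 ± 0.41). SS4 was lost without T2L replicate 1 or 2 or T2H replicate 1 or 2 (0.0541 to 0.213), and GPT2 in all 6 of those fits (0.0647 to 0.143).

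**Figure D3:**
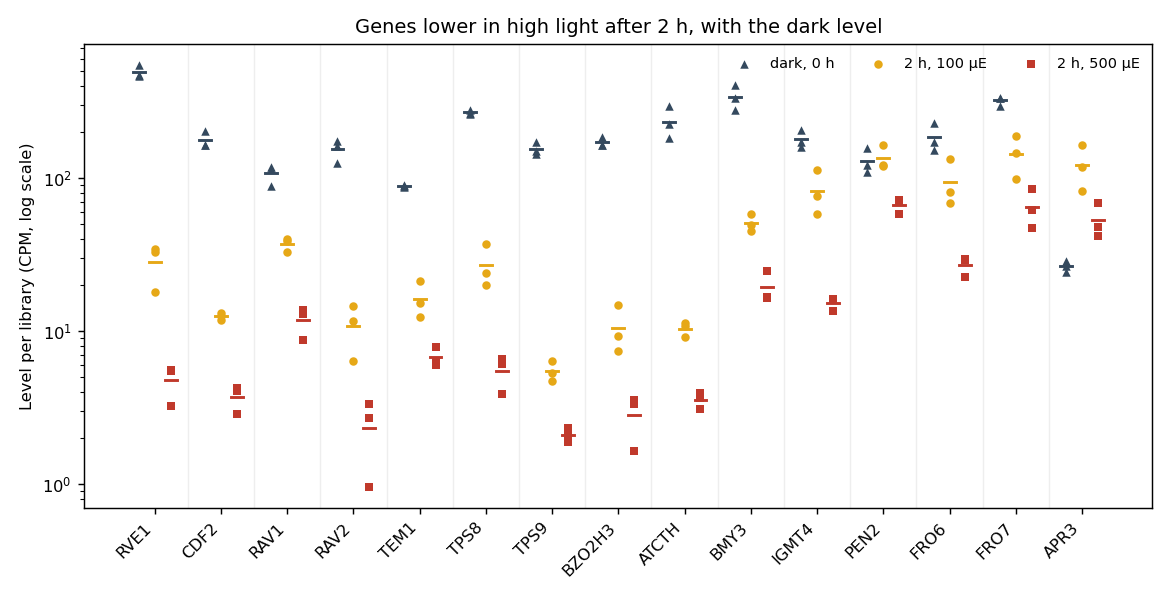
Level per library, in CPM on a log y axis, of genes that fell, with triangles for the 3 dark libraries, circles for T2L, squares for T2H and bars at the means. RVE1, CDF2, RAV1, RAV2, TEM1, TPS8, TPS9, BZO2H3, ATCTH and BMY3 step down from dark to standard to high light, whereas APR3 stood at 26.5 CPM in the dark, below both lights.

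Sulphate assimilation and indole glucosinolate synthesis also held more called falls than rises. The 3 APS reductases, which carry the controlled step of sulphate assimilation, all fell among 14 sulphur genes with a list median of -0.50. APR3 was at 163, 118 and 82.1 CPM in T2L and 41.7, 47.6 and 68.8 CPM in T2H (-1.2 ± 0.24, adjusted p = 0.00958). APR1 fell by 0.80 ± 0.19 and APR2 by 0.68 ± 0.16, and in each the groups did not overlap. Their dark levels of 21.3 to 75.2 CPM lay under both lights. All 3 lost their call without T2L replicate 1 or T2H replicate 1 or 2 (0.0552 to 0.158), APR1 and APR2 also without T2L replicate 2 (0.069 and 0.0624), and none passed with the ribosomal RNA covariate.

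Of 18 genes of indole glucosinolate synthesis, which makes tryptophan-derived defence compounds, 3 fell and 1 rose. IGMT4, an indole glucosinolate methyltransferase, was at 113, 76.6 and 58.1 CPM in T2L and at 16.2, 13.4 and 16.3 CPM in T2H (-2.43 ± 0.28, adjusted p = 4.71e-05). Its high-light libraries were nearly equal and far under the standard-light range, and it passed in every fit that left out 1 library. Its near copy IGMT3 fell by 2.06 ± 0.52, with the split of reads between the copies uncertain, and PEN2, the myrosinase that cleaves these compounds, by 1.02 ± 0.19. CYP79B2, which makes their precursor from tryptophan, rose by 1.25 ± 0.28. Without T2L replicate 1, CYP79B2, PEN2 and IGMT3 were lost (0.0587 to 0.106), IGMT3 and CYP79B2 also without T2L replicate 2 (0.0934 and 0.0728), T2H replicate 1 (0.0608 and 0.0651) and T2H replicate 3 (0.0689 and 0.0581), and IGMT3 without T2H replicate 2 (0.152). None of 11 genes of the aliphatic branch passed, with a median of 0.18, or -0.045 with the ribosomal RNA covariate.

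Ribosome biogenesis was the other group in which many members rose: 7 of 16 rose, none fell, and the list median was 0.75. They were NUC-L1, a nucleolin (0.94 ± 0.22), NOP58-1 and NOP58-2 of the snoRNA particles that guide ribose methylation (1.00 ± 0.26 and 1.08 ± 0.21), the pseudouridine synthase NAP57 (0.89 ± 0.24), PES and BOP1 of the complex that matures the large subunit (0.94 ± 0.21 and 0.71 ± 0.19), and PUM24 (1.03 ± 0.24). NOP58-2 was at 51.8, 53.5 and 43.4 CPM in T2L and 80.3, 134 and 98.6 CPM in T2H, with no overlap (adjusted p = 0.00618). The upstream windows of NOP58-1, NOP58-2 and PUM24 held the heat shock element, and those of the 9 members that did not pass did not. Its share over all tested nuclear protein-coding genes was 9.49%. NOP58-2 passed in each fit that left out 1 library and with the ribosomal RNA covariate, where the list median was 0.69. The other 6 were lost with that covariate (0.0765 to 0.245) and without T2L replicate 1 (0.0954 to 0.222), and some of them without T2L replicate 3 or T2H replicate 1, 2 or 3 (0.0562 to 0.213). The share of mature ribosomal RNA in the counts moved with the groups as given above, and its part in these rises was not tested beyond the covariate.

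Light signalling and pigment genes had few calls, beside 1.45% higher and 1.22% lower over all genes tested. HY5, the bZIP factor that promotes light responses, was at 13.8 to 19.7 CPM in T2L and 22.6 to 37.3 CPM in T2H (0.90 ± 0.24, adjusted p = 0.045), and BBX31, a B-box protein, at 6.36 to 9.93 and 18.3 to 31.1 CPM (1.6 ± 0.34); these were 2 of 26 light signalling genes. In flavonoid synthesis 1 of 24 rose and 1 fell: C4H of the phenylpropanoid entry rose by 0.79 ± 0.22 and MYBL2, a repressor of anthocyanin synthesis, fell by 1.11 ± 0.23. HY5 passed only without T2H replicate 3 (0.0622 to 0.188 in the other 5 fits). BBX31 was lost without T2L replicate 1 or T2H replicate 1 (0.083 and 0.0874), C4H without T2L replicate 1 or 2 or T2H replicate 1 or 2 (0.102 to 0.237), and MYBL2 without T2L replicate 1 or T2H replicate 2 (0.062 and 0.0632).

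Among the other lists, stress signalling by early transcription factors had 1 of 42 genes called, ERF2, an ethylene response factor, which fell. ERF2 was at 26.1, 10 and 4.93 CPM in T2L and 2.48, 1.72 and 1.90 CPM in T2H (-2.69 ± 0.50, adjusted p = 0.00678), and the T2L libraries were widely spread; it passed in each fit that left out 1 library and not with the ribosomal RNA covariate (0.0973). Jasmonate and salicylate defence (23 genes) and endoplasmic reticulum chaperones (16 genes) had no call, with medians of 0.26 and 0.34. With the ribosomal RNA covariate these medians were 0.23 and -0.11. In the list for cold, drought and abscisic acid 21 of 24 genes had a fold change above 0 and the median was 0.73, yet 1 passed, the galactinol synthase GolS2 (1.94 ± 0.52, adjusted p = 0.0488, lost without T2L replicate 1 or 3 or T2H replicate 1 or 2 at 0.0538 to 0.212). In nitrogen assimilation 1 of 16 rose, UPM1, an enzyme of sirohaem synthesis (0.94 ± 0.25, which passed only without T2L replicate 2, with 0.0622 to 0.163 in the other 5 fits).

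**Figure D4:**
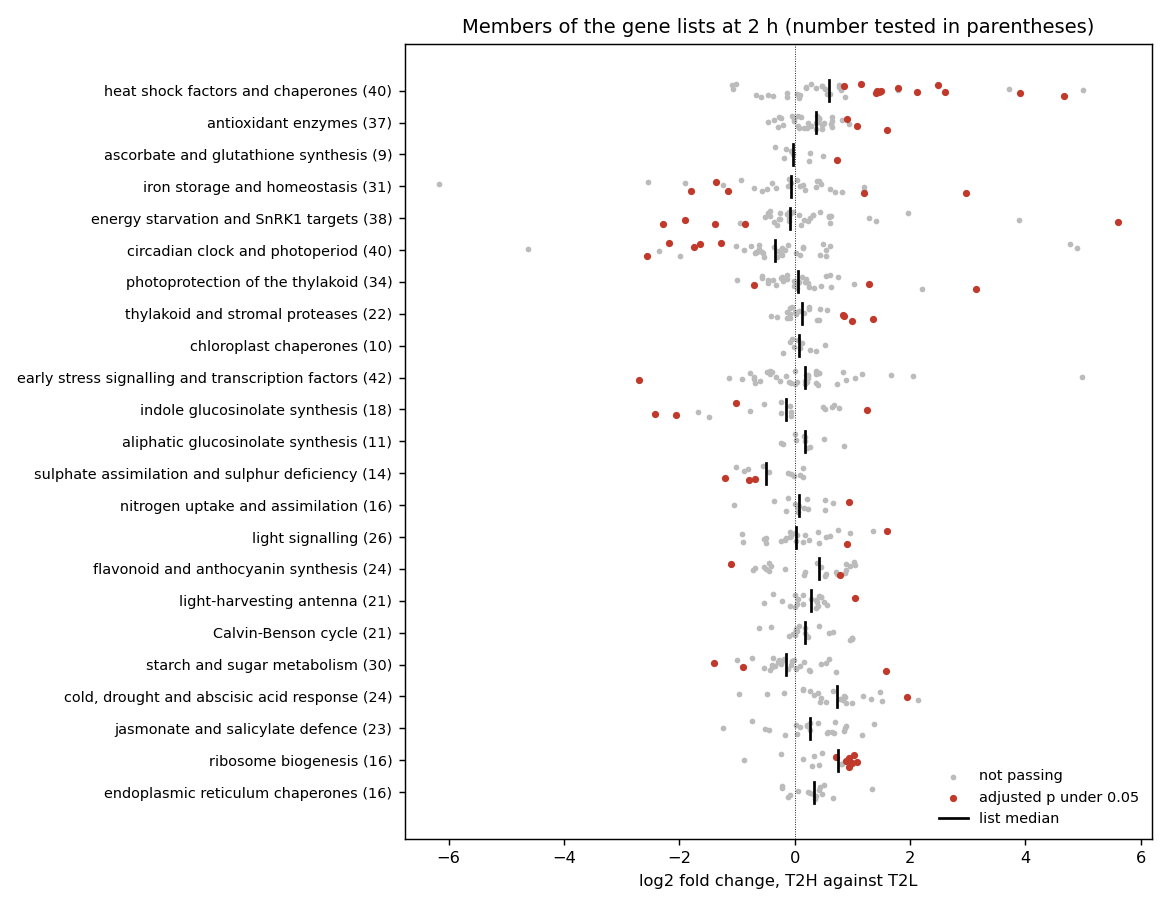
Each point is a list member, with its log2 fold change in high light at 2 h on the x axis and its list on the y axis; red points passed an adjusted p of 0.05, grey ones did not, and black bars are list medians. The red points of heat shock (12 of 40) and ribosome biogenesis (7 of 16) lie to the right of 0, and those of clock and sulphur genes to the left.

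The 20 largest rises included KTI1 and ELI3-2 besides members of these lists. KTI1, a Kunitz trypsin inhibitor, was at 0, 0.621 and 0 CPM in T2L and 18.4, 4.96 and 10.4 CPM in T2H (log2 fold change 5.46 ± 0.91, adjusted p = 0.00377). ELI3-2, an aromatic alcohol dehydrogenase, was at 1.55 to 6.97 CPM in T2L and 15.2 to 33.1 CPM in T2H (2.62 ± 0.43, adjusted p = 0.0026). Both passed in each fit that left out 1 library.

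Some of the 20 were barely detected in standard light. AT3G24750, of unknown function, had no count in T2L and 88 in T2H, and so was at least 6.96-fold higher against a floor of 3 counts per library. GLYI7, a glyoxalase, had 1 count against 92, a ratio of 77.2 with an exact counting interval of 13.5 to 3082, and AT2G36780, a glycosyltransferase, had 3 against 161, a ratio of 45.04 (15.1 to 221). These intervals cover counting error only. The remaining 7 were the cytochromes P450 CYP76C2 and CYP91A2, the flowering repressor FLC, the J-domain protein AT5G23240, AT3G14395, TCP9 and NF-YC13, with log2 fold changes of 2.2 to 3.22 and means of 2.33 to 21.5 CPM in T2H. Without T2L replicate 1, each of these 7 and AT3G24750, GLYI7 and AT2G36780 was lost (0.061 to 0.19); without T2H replicate 3, FLC and TCP9 were lost (0.0526 and 0.0615), and without 1 or more of the other 4 libraries each of the 10 was lost as well (0.051 to 0.191).

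Further falls among the 20 largest were mostly in genes of low level. The thioredoxin family gene AT3G62950 was at 3.33, 1.79 and 1.06 CPM in T2L and 0.201, 0 and 0.316 CPM in T2H, after 30.7 CPM in the dark (-3.47 ± 0.62, adjusted p = 0.00417). AT5G49015, of unknown function, went from 2.4 ± 1.33 to 0.264 ± 0.0583 CPM (-3.08 ± 0.51). These 2 passed in each fit that left out 1 library, but not from the 6 libraries alone (0.117 and 0.0843). WCRKC1, a thioredoxin, fell from 4.2 to 0.481 CPM on average (-3.08 ± 0.58) and was lost without T2H replicate 1 (0.0539). PKS4, a phytochrome kinase substrate of phototropism, the NPH3 family gene AT3G19850, the growth regulator ARL, the transporter ABCG42 and AT1G70790 fell by 1.91 to 2.50 on the log2 scale. AT5G05250, AT5G27890, AT2G39920, AT3G29631, AT1G80130 and AT2G35030 fell by 2.51 to 3.37. Each of these 11 was lost without T2L replicate 1 (0.0541 to 0.259), and all but AT1G70790 also without 1 or more other libraries.

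The authors' deposited table names 7 further genes outside the lists and the largest changes. FIB, a fibrillin of plastoglobules, was at 22.1, 42.6 and 45.9 CPM in T2L and 186, 128 and 97.0 CPM in T2H (1.88 ± 0.26, adjusted p = 0.000304). CCoAOMT1 of lignin synthesis rose by 1.41 ± 0.20, the chitinase CHI by 1.73 ± 0.29, the GATA factor CGA1 of chloroplast development by 1.68 ± 0.23, TPD1 by 1.87 ± 0.28 and AT3G23510, a cyclopropane fatty acid synthase, by 1.93 ± 0.26. AT1G70820, a putative phosphoglucomutase, fell by 1.55 ± 0.25. All 7 passed in each fit that left out 1 library.

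MIR163, whose precursor is cut into a miRNA that silences methyltransferase genes, was named after its value was seen, being 1 of 18 miRNA loci tested. The precursor was at 4.09, 6.55 and 10.8 CPM in T2L and at 27.8, 27.0 and 14.8 CPM in T2H, with no overlap (1.66 ± 0.30, adjusted p = 0.00484). The mature miRNA at chr1:24884359-24884382 (+ strand) is given in RefSeq's DNA letters, with the seed, bases 2 to 8, in capitals; these libraries measured the precursor and not the mature miRNA.
miR163: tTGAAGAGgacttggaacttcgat

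Some chloroplast-encoded genes fell. Of 79 protein-coding chloroplast genes tested, 9 fell and none rose, 73 had a fold change under 0, and their median was -0.65. The 9, named after their values were seen, were the polymerase genes rpoB, rpoC1 and rpoC2, ndhA, ndhF and ndhG of the NADH dehydrogenase-like complex, rpl16, rps15 and ycf1. The polymerase gene rpoB was at 1074, 972 and 1019 CPM in T2L and at 523, 540 and 682 CPM in T2H, and ndhF at 1817, 1545 and 983 CPM and 347, 483 and 696 CPM. The groups did not overlap in either gene, and T2H replicate 3, the T2H library with most ribosomal RNA, was the highest of its group in both. Without T2L replicate 1 or T2H replicate 1 or 2, ndhF, rpoB, rpoC1, rpoC2 and ycf1 reached adjusted p of 0.0804 to 0.205, and without T2L replicate 2 all of these but rpoB reached 0.0516 to 0.102. As a share of all counts chloroplast protein-coding genes took 30.9% to 45.03% in T2L and 30.5% to 39.3% in T2H (exact permutation p = 0.9). With the ribosomal RNA share as covariate none of the 79 passed as lower and the median was -0.32.

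The same contrast at 5 and 8 h uses other libraries and shows how the 2 h genes stood later. At 5 h, 7.29% of all genes tested were higher and 4.74% lower in high light. Of the 284 genes that rose at 2 h, 131 (46.1%) also rose at 5 h and none fell. Of the 239 that fell at 2 h, 79 (33.1%) fell at 5 h and 3 rose. At 8 h, when 7.79% of all genes tested were higher and 7.62% lower, 71 of the 284 (25%) rose and 24 fell, and of the 239 genes 33 (13.8%) fell and 37 rose. At 8 h ribosomal RNA took 19.8% to 26.9% of the counts in T8H and 4.01% to 9.23% in T8L. At 5 h it took 0.335%, 0.118% and 33.4% in T5H replicates 1, 2 and 3, and 2.32% to 4.91% in T5L. T5H replicates 1 and 2 were thus below standard light, as T2H replicates 1 and 2 were at 2 h. The part of this in the later values, and in what the 2 times share, was not tested.

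The difference between the 2 h effect and the mean of the 5 and 8 h effects passed in 5.79% of all genes tested, in 2.18% with the 2 h effect higher and in 3.61% with it lower. It passed in 73 of the 284 genes that rose and 92 of the 239 that fell; since the 2 h values enter this difference and chose the genes, these counts are a description. Heat shock genes were among them. HSP70 went from a log2 fold change of 3.91 at 2 h to 0.96 at 5 h and -0.79 at 8 h. The changes of HSP70 at 5 and 8 h did not pass (adjusted p = 0.1953 and 0.2875). In standard light its level climbed from 1.32 to 8.22 and 23.3 CPM. Hsp70-2 rose by 2.11 at 2 h and fell by 1.57 at 8 h (adjusted p = 0.00344), and Fes1A rose by 1.15 and fell by 1.08 (adjusted p = 0.00561), both with their highest mean level in T8L. In high light the mean of Hsp70-2 was 88.9 CPM at 2 h, 51.5 at 5 h and 81.9 at 8 h, while in standard light it was 20.4, 29.2 and 243 CPM. The order of the Hsp70-2 means thus turned between 5 and 8 h, when the standard-light level was at its highest. At 8 h its groups overlapped, with T8L replicate 1 at 103.1 CPM and T8H replicate 3 at 106.5 CPM.

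Other genes followed different courses. FER1 stayed higher in high light at 5 h (2.47, adjusted p = 6.88e-06) and did not pass at 8 h (0.57), and APX1 did likewise (1.53 at 5 h, 0.13 at 8 h). Genes that rose at all 3 times included BETA-OHASE 1, SPPA, CGA1 and BBX31, and genes that fell at all 3 included TPS8, ATCTH, RAV2 and IGMT3. At 8 h BBX31 was near no counts, at 0 to 0.150 CPM in T8L and 0.121 to 0.634 CPM in T8H, and the groups overlapped. HY5 rose by 0.90 at 2 h and by 2.58 and 2.31 at 5 and 8 h. Flavonoid genes, of which 1 of 24 had risen at 2 h, rose in 18 cases at 5 h and 17 at 8 h, and of the 10 chloroplast chaperones, none of which passed at 2 h, 7 rose at each later time. Whether these lists differ between times was not tested. The APS reductases turned: APR1 fell by 0.80 at 2 h and rose by 1.27 at 8 h (adjusted p = 8.57e-05), APR2 by 0.68 and 0.79, and APR3 by 1.2 and 1.06.

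**Figure D5:**
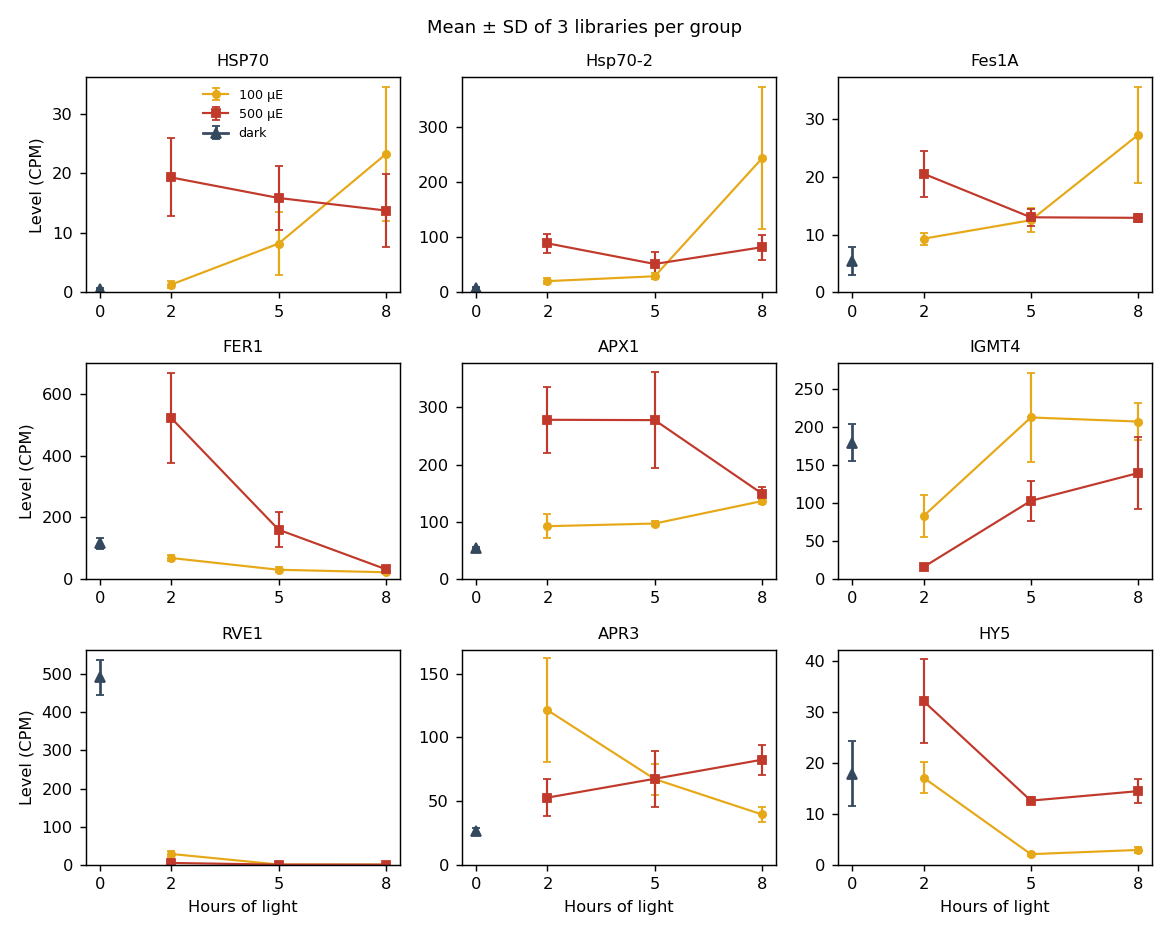
Mean level in CPM on a linear y axis, with SD over 3 libraries as error bars, against hours of light for 9 genes; triangles are the dark samples, circles 100 µE and squares 500 µE. HSP70, Hsp70-2 and Fes1A differ between lights at 2 h and the order of the means is turned at 8 h, FER1 falls from 522 CPM at 2 h to 30.4 CPM at 8 h in high light, and the curves of APR3 cross.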

How the data were processed

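Strand-specific libraries from rosette RNA depleted of ribosomal RNA were read as 75-base single ends, per the labels. The authors trimmed, aligned and counted with Trim Galore 0.4.4 and Subread 1.5.0, per the submitters' processing notes, and the deposited raw read counts were made with featureCounts 1.5.0, per the file headers, over 1 span a gene, introns included. No source used here names the genome build; the spans of 32896 of 33341 loci equal those of TAIR10.1, which gave names and coordinates. The authors' deposited table of comparisons holds log2 fold changes, log2 CPM and FDR-adjusted p-values.

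From the counts, TMM-scaled CPM and edgeR 4.0.16 quasi-likelihood tests (R 4.3.3, robust, filterByExpr, all 21 libraries in 1 fit) were computed, with Benjamini-Hochberg adjustment over 19626 genes and a threshold of 0.05; errors of fold changes are standard errors. Alternatives included DESeq2 1.42.0 and limma 3.58.1. The pipeline was tested on simulated data. Named genes were the 20 largest rises and falls with non-overlapping libraries and at least 2 CPM in a group, called members of 23 fixed lists, and genes in the authors' table. The largest shift of a list median on leaving out genes with 3 or fewer counts in a group was 0.056. A member was assigned to a list by locus, and members and lists were chosen with earlier results of these data known. Counting intervals and floors of 3 counts (0.201 to 0.454 CPM in a 2 h library) cover counting error only.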

Additional observations from a re-analysis of the deposited data

Results flagged for a closer look

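For 36 named genes the 2 h effect of high light differed from the mean of the 5 and 8 h effects in a test of the difference itself (edgeR, adjusted p under 0.05); values are log2 differences, 2 h minus later. The 2 h values that named the genes enter these differences.

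The difference was above 0 for chaperones and their regulators: HSFA2 4.14, HSP70 3.83, HSP90.1 2.96, Hsp70-2 2.49, DNAJ 2.48, AT5G23240 2.32, AT3G09440 2.06, ROF2 1.92, Fes1A 1.66, HSP101 1.59 and HSP81-3 1.06. It was also above 0 for KTI1 at 4.22, FLC at 3.42, GolS2 at 2.34, CHI at 1.72, FER1 at 1.45, ERD1 at 1.33, CCoAOMT1 at 1.32 and FTSH8 at 0.75.

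It was below 0 for the APS reductases APR1, APR2 and APR3 at -1.57, -1.26 and -1.73, and for the regulators ERF2 at -2.44 and HY5 at -1.54. It was below 0 for IGMT4 at -1.61, FRO7 at -1.08, TPS7 at -0.86 and NPQ1 at -0.81. The remaining genes below 0 were AT5G05250 at -4.11, AT5G27890 at -3.93, AT2G35030 at -3.56, AT5G49015 at -3.42, AT1G80130 at -3.21, WCRKC1 at -2.70, AT1G70820 at -1.84 and AT1G70790 at -1.74. HY5 differed by a rise that was larger later, whereas the 3 APS reductases fell at 2 h and rose at 8 h.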

How the results depend on the processing

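The 284 higher and 239 lower calls moved with the test and the libraries. They were 695 and 641 with no filter on low counts, 555 and 529 with DESeq2, 16 and 8 against a minimum fold of 1.5, 87 and 76 from the 6 libraries alone, 93 and 82 when those 6 also lacked ribosomal RNA loci, 563 and 454 in the fit lacking T5H replicate 3, and 60 and 71 with a ribosomal RNA term in the fit. Leaving out 1 of the 6 libraries gave 61 to 413 higher and 49 to 378 lower. No pairing of the samples by replicate number was seen (correlations of deviations -0.0382, 0.0099 and -0.0162, none best with its own number). With 3 libraries a group this check cannot exclude a pairing. A fit with the replicate as a block called 224 higher and 200 lower. Size factors of DESeq2, nuclear protein-coding loci alone, limma voom and leaving out ribosomal RNA loci kept both counts within 1.5 times. Of 99 named genes, 12 to 57 no longer passed when 1 library was left out, 58 with the ribosomal RNA term, 41 from the 6 libraries alone, 21 with limma voom, 18 with the block, 75 against the minimum fold and 1 with DESeq2, which gave no adjusted p for 3 more (AT3G24750, GLYI7 and AT5G27890). No named gene changed sign in any alternative run, and 51 of the 523 calls passed in all 17 alternatives other than the minimum fold. The alternatives chosen after seeing the data were those without ribosomal RNA loci and those for the later times. With 3 libraries a group and 6545003 counts in T2L replicate 1, small changes of low genes were not detectable.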
